A study of Sus scrofa with 7 samples.

Results

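Proteins of the BCL2 family decide at the outer membrane of the mitochondrion whether a cell enters apoptosis. Anti-death members such as BCL2, BCL-XL and MCL1 hold the pore formers BAX and BAK1 in check, while BH3-only members such as BID, BIM, BMF, PUMA and NOXA relieve that restraint or activate the pore formers. Open pores release cytochrome c, which starts the caspase cascade, and pluripotent stem cells are known for the ease with which they take this route. The family was examined here through 10 symbols, chosen by name: the anti-death genes BCL2, BCL2L1 and MCL1, the pore formers BAX and BAK1, and the BH3-only genes BID, BCL2L11, BMF, BBC3 and PMAIP1. Among the 29510 gene rows of the deposited tables, 6 carried one of these symbols, namely BCL2, MCL1, BAX, BAK1, BID and PMAIP1, and all 6 passed the filter on low counts. No row was named BCL2L1, BCL2L11, BMF or BBC3, and 3 rows matched to the first, second and last of these by their listed name, deposited protein description or identifier are described after the 6.

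RNA was sequenced from 7 porcine cell lines, 1 library per line. The 3 lines of extra-embryonic endoderm cells (pXEN) came from the inner cell mass of day 6 parthenogenetic blastocysts and grew on mouse embryonic fibroblasts with LIF, the GSK3 inhibitor CHIR99021, dimethindene maleate, minocycline and the ROCK inhibitor Y27632. The 2 lines of naïve-like embryonic stem cells (nESCs), also derived from the inner cell mass, grew on mouse embryonic fibroblasts with FGF, LIF, CHIR99021, the MEK inhibitor PD0325901, the TGFβ receptor inhibitor SB431542 and doxycycline. The 2 lines of primed embryonic stem cells (pESCs) were, per the labels, converted from naïve-like cells and grew on STO cells, a mouse fibroblast line, with activin A, bFGF, EGF and LIF. Passage numbers were 26, 26 and 23 for pXEN lines 1 to 3, 21 and 22 for the nESC lines, and 20 for both pESC lines. Medium therefore differed between all the cell types, and feeder cells between the pESCs and the other types. These differences cannot be told apart from those of cell type. Which nESC line gave which pESC line is not given in the sources used here.

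Levels are given as FPKM, the fragments on a gene scaled by its listed length and by sequencing depth, and differences as log2 fold changes of counts. A gene was called different at an adjusted p under 0.05 in edgeR's quasi-likelihood test over 17447 genes. The test measures the spread between these lines only, which was 0.223 as a coefficient of variation. The reads assigned to genes came to 10408164 in the shallowest library and 12995720 in the deepest. In RNA from whole cultures, fewer cells of a type and less RNA per cell cannot be told apart. The summed FPKM of 6 extra-embryonic endoderm markers, including GATA4, GATA6 and SOX17, was 829 to 1066 in the pXEN lines and 9.78 to 12.2 in the ESC lines. Of the epiblast markers, SOX2 had 1633 to 2729 counts in the ESC lines and 0, 30 and 0 in pXEN lines 1 to 3. DPPA4 was at 0 in all 7 libraries, POU5F1 had at most 5 counts in any, and NANOG had 0 and 2 counts in the nESC lines and 60 to 177 in the pXEN lines, so these 3 did not mark the ESC lines here. Markers of other cells moved with some lines. Fibroblast markers, of which 9 of 10 were listed, summed to 247 FPKM in pXEN line 2 against 18.3 and 20.6 in lines 1 and 3, 35.4 and 40.5 in the nESC lines and 58.4 and 90.5 in the pESC lines. Trophectoderm markers, of which 4 of 6 were listed, summed to 39.4 and 43.7 FPKM in the pESC lines, nearly all of it TFAP2C, and to at most 1.81 elsewhere, with HAND1 at 0 in every library. In pXEN line 2 the fibroblast sum was nearly all collagen (COL1A1 144, COL3A1 77.5 and COL1A2 21.1 FPKM), while TWIST1, TWIST2 and PRRX1 were at 0.192, 0.553 and 0.397 there and higher in the nESC lines.

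The anti-death side was carried by MCL1, a short-lived protein that binds BAK1 and BH3-only members. On the FPKM scale MCL1 was the highest of the family in every line, at 127, 167 and 118 in pXEN lines 1 to 3, 192 and 197 in the nESC lines and 150 and 146 in the pESC lines. All pXEN lines lay below both nESC lines, and the pXEN and pESC ranges overlapped. The mean level was 138 ± 26.1 (SD, n = 3) in pXEN cells, 194 ± 3.65 (SD, n = 2) in nESCs and 148 ± 2.60 (SD, n = 2) in pESCs. MCL1 was lower in pXEN cells than in nESCs, by 1.41-fold (log2 fold change −0.50 ± 0.15 SE, adjusted p = 0.0249). That call was lost without any of 4 lines, with adjusted p of 0.0766 without pXEN line 1, 0.0656 without pXEN line 3, 0.0878 without nESC line 1 and 0.110 without nESC line 2, and at 0.0652 when the line numbers were fitted as a replicate block. The difference was −0.53 and −0.48 without nESC line 1 or 2, close to its value with all lines. Where a line is left out of a type with 2, here and in the comparisons that follow, the lone line is assumed to vary like the other types, and a lost call then also reflects fewer samples. The difference between pXEN cells and pESCs was −0.09 ± 0.16 on the log2 scale (adjusted p = 0.660). It became a call, at −0.26 and an adjusted p of 0.0325, without pXEN line 2, which had the highest MCL1 of the pXEN lines and the high fibroblast markers given above. Between pESCs and nESCs the difference was −0.41 ± 0.17 (adjusted p = 0.104), which likewise passed without pXEN line 2 (0.00544). The part of whatever carried these markers in the MCL1 level, or in those of BAX, BAK1, BID, BCL-XL, BIMEL and the BBC3 row, which among the pXEN lines were also highest in line 2, was not tested.

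The row named for BCL2 itself, the founding anti-death gene, was barely detected. A longer unnamed row of the same chromosome with a Bcl-2 family domain, described below, held 29 to 161 counts. The BCL2 row is a single stretch at chr1:175695537-175696139 on the minus strand (Sscrofa10.2) with a listed length of 603 bases. It held 9, 12 and 12 counts in the pXEN lines, 9 and 2 in the nESC lines and 25 and 16 in the pESC lines, so nESC line 2 lay under the 3 counts taken as the floor of detection. The corresponding FPKM means were 1.68 ± 0.152 (SD, n = 3), 0.757 ± 0.669 (SD, n = 2) and 2.62 ± 0.930 (SD, n = 2). The ranges of the 3 cell types did not overlap in FPKM, and yet no comparison passed the test at this depth. The largest difference was between pESCs and nESCs, at 1.75 ± 0.69 on the log2 scale (adjusted p = 0.0886 with edgeR, and with limma 0.0496 on log2(FPKM + 0.1) and 0.0313 on log2(FPKM + 1)). It ran from 1.07 without nESC line 2 to 3.11 without nESC line 1, and that between pXEN cells and nESCs, 1.13 ± 0.66 (adjusted p = 0.184), from 0.45 to 2.48 in the same runs.

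BAX, which moves from the cytosol into the mitochondrial membrane, was at 81.8, 99.5 and 83.4 FPKM in pXEN lines 1 to 3, 131 and 140 in the nESC lines and 58.0 and 59.4 in the pESC lines. No line of any cell type reached into the range of another, with nESCs highest, pXEN cells between and pESCs lowest. BAX was lower in pXEN cells than in nESCs by 1.54-fold (−0.62 ± 0.13, adjusted p = 0.00376) and lower in pESCs than in nESCs by 2.33-fold (−1.22 ± 0.14, adjusted p = 0.000616). Both of these calls were kept in all 16 alternatives tried. BAX was higher in pXEN cells than in pESCs by 1.51-fold (0.60 ± 0.13, adjusted p = 0.00654), a call lost without pESC line 1 (adjusted p = 0.0588) or pESC line 2 (0.0519).

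BAK1, the pore former that resides in the mitochondrial membrane, had another order. Its level was 8.76, 10.3 and 8.35 FPKM in the pXEN lines, 19.2 and 16.1 in the nESC lines and 20.0 and 18.1 in the pESC lines. The ESC types overlapped, and all pXEN lines lay below every ESC line. BAK1 was 1.94-fold lower in pXEN cells than in nESCs (−0.95 ± 0.14, adjusted p = 0.000707) and 2.07-fold lower than in pESCs (−1.05 ± 0.14, adjusted p = 0.000542), and both calls were kept in all 16 alternatives. The difference between pESCs and nESCs was 0.10 ± 0.15 (adjusted p = 0.671), and its sign turned, to −0.02, without nESC line 2. As a ratio of FPKM, BAX stood to BAK1 at 9.34 to 9.98 in the pXEN lines, 6.81 to 8.71 in the nESC lines and 2.90 to 3.28 in the pESC lines. These ratios rest on the listed lengths, 579 bases for BAX and 3949 for BAK1, but the order of the cell types does not.

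**Figure D1:**
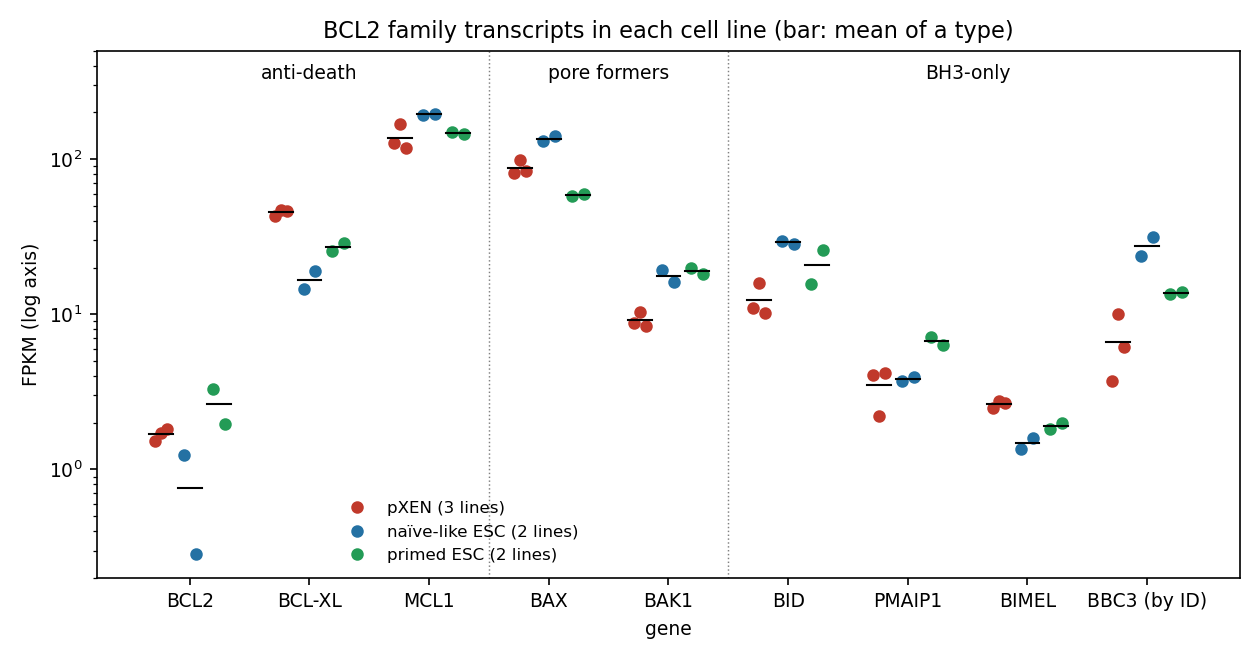
FPKM of each row of the BCL2 family on a log axis, 1 point per cell line, coloured by cell type, with a bar at the mean of the type. MCL1 and BAX were the highest rows in every cell type, BAK1 was lowest in the 3 pXEN lines, and BCL-XL was highest in them.

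Of the BH3-only genes with a row of their own name, BID links death receptors to the mitochondrion, since caspase 8 cleaves it into an active form. BID was at 10.9, 15.8 and 10.23 FPKM in pXEN lines 1 to 3, 29.7 and 28.4 in the nESC lines and 15.8 and 26.1 in the pESC lines. The pXEN lines were all below the nESC lines, while pXEN line 2 and pESC line 1 lay at the same level. BID was lower in pXEN cells than in nESCs by 2.36-fold (−1.24 ± 0.26, adjusted p = 0.00442), and all 16 alternatives kept this call. Against pESCs it was 1.69-fold lower (−0.76 ± 0.26, adjusted p = 0.0437), but 9 of 16 alternatives lost the call. Among those 9, leaving out pESC line 2 took the difference to −0.35 (adjusted p = 0.389), leaving out pXEN line 1 or 3 gave adjusted p of 0.117 and 0.116, and leaving out nESC line 1 or 2 gave 0.0688 and 0.0690. With the line numbers as a replicate block the adjusted p was 0.0801. Between pESCs and nESCs the difference was −0.48 ± 0.28 (adjusted p = 0.232), and it was −0.16 without pESC line 1 and −0.89 without pESC line 2.

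PMAIP1 encodes NOXA, a BH3-only protein that binds MCL1. Its level was 4.07, 2.22 and 4.17 FPKM in the pXEN lines, 3.74 and 3.97 in the nESC lines and 7.14 and 6.34 in the pESC lines, so both pESC lines lay above all others. PMAIP1 was lower in pXEN cells than in pESCs by 1.93-fold (−0.95 ± 0.29, adjusted p = 0.0286), a call lost without pESC line 1 (adjusted p = 0.147) or pESC line 2 (0.0884). The difference from nESCs was −0.15 ± 0.30 (adjusted p = 0.693), and it turned to 0.09 without pXEN line 2, where PMAIP1 was lowest. PMAIP1 stood 0.79 ± 0.32 higher on the log2 scale in pESCs than in nESCs (adjusted p = 0.0988), which became a call without pXEN line 2 (0.0149) and when only these 2 groups were fitted (0.0224).

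In counts over the 6 members, the comparison of pXEN cells with nESCs called 4 lower (MCL1, BAX, BAK1 and BID) and 0 higher in pXEN cells with edgeR, and the same numbers with DESeq2, with limma, at an unadjusted p under 0.05 and without pXEN line 2. Over all 17447 genes tested, 26.2% were called lower and 28.3% higher there, or 4577 and 4937 genes. Other scalings turned that majority, to 5737 lower and 4276 higher with library totals and 5621 and 4348 with the upper quartile. Against pESCs, 3 members were lower in pXEN cells (BAK1, BID and PMAIP1) and 1 was higher (BAX), beside 24.4% and 23.9% of all genes. The 4 members called became 2 without pESC line 1, 1 without pESC line 2 and 5 without pXEN line 2, while the calls over all genes went from 8429 to 5671, 5553 and 9566. With library totals in place of TMM scaling, the calls over all genes in this comparison were 3446 higher and 5405 lower, against 4168 and 4261 with TMM. Between pESCs and nESCs, 1 member was lower in pESCs (BAX) and 0 were higher with edgeR or DESeq2, where 13.3% of all genes were lower and 19.0% higher. For the same members limma called 1 higher and 1 lower, beside 3397 and 2289 of all genes with a pseudocount of 0.1. At an unadjusted p under 0.05 in edgeR the counts were 2 higher and 2 lower. The share of all genes at an unadjusted p is not given here, so nothing is read from the member counts at that threshold in either comparison. Without pXEN line 2 the last comparison called 3 members, adding MCL1 as lower and PMAIP1 as higher in pESCs, while the calls over all genes went from 5621 to 7566. The median log2 fold change of the 6 was −0.56, −0.69 and −0.16 in the order of these comparisons, where that of all genes tested was 0.00, −0.01 and 0.01.

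For BCL2L1, a row is listed as BCL-XL, a name in use for the anti-death product of that gene, and described as Bcl-2-like protein 1, at chr17:40303941-40304555 on the minus strand, with a listed length of 615 bases, equal to its span. Its counts are per gene and do not separate transcript forms. It was at 42.9, 47.2 and 46.3 FPKM in pXEN lines 1 to 3, 14.5 and 19.05 in the nESC lines and 25.6 and 28.9 in the pESC lines. The order was pXEN cells, pESCs and nESCs, with no overlap between the cell types. BCL-XL was 2.70-fold higher in pXEN cells than in nESCs (1.43 ± 0.18, adjusted p = 0.000312), and all 16 alternatives kept that call. It was 1.68-fold higher than in pESCs (0.74 ± 0.17, adjusted p = 0.00815), a call lost without pESC line 1 (0.0768). Between pESCs and nESCs it was 1.61-fold higher in pESCs (0.69 ± 0.19, adjusted p = 0.0264), which was lost without nESC line 1 (0.157), pESC line 1 (0.0724) or pESC line 2 (0.149).

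For BBC3, whose product PUMA binds all anti-death members, a row without a name carried the Ensembl identifier paired with that symbol (ENSSSCG00000003112, chr6:48411038-48420848, minus strand). Its level was 3.70, 10.03 and 6.16 FPKM in the pXEN lines, 23.8 and 31.5 in the nESC lines and 13.5 and 14.0 in the pESC lines. No cell type overlapped another, and the pXEN lines spread by 2.71 times from the lowest to the highest, where the median gene with at least 10 counts on average spread by 1.38 times. The row was 4.16-fold lower in pXEN cells than in nESCs (−2.06 ± 0.34, adjusted p = 0.00145), in every alternative. Against pESCs it was 2.05-fold lower (−1.03 ± 0.35, adjusted p = 0.0397), but 7 of 16 alternatives lost the call, 6 of which left out a line: 0.0608 and 0.0972 without pXEN line 1 or 3, 0.0581 and 0.0583 without nESC line 1 or 2, and 0.125 and 0.148 without pESC line 1 or 2. Between the ESC types the difference was −1.02 ± 0.37 (adjusted p = 0.0713), which 5 of 16 alternatives turned into a call, without pXEN line 1 (0.0246) or 2 (0.00544), with DESeq2 (0.0395), with only these groups fitted (0.00259) and with upper-quartile scaling (0.0499).

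For BCL2L11, the gene of BIM, a row is listed as BIMEL, and described as Bcl-2-like protein 11, on the unplaced scaffold JH118923.1 (bases 27424 to 54664, plus strand). It was at 2.501, 2.75 and 2.67 FPKM in the pXEN lines, 1.35 and 1.61 in the nESC lines and 1.81 and 2.00 in the pESC lines. All pXEN lines were the higher ones, on 42 to 54 counts. The difference from nESCs was 0.83 ± 0.31 (adjusted p = 0.0495), which 13 of 16 alternatives put past the threshold, with adjusted p from 0.0170 to 0.201 over the 16. Those 13 include each of the 7 libraries left out in turn. The differences from pESCs and between the ESC types were 0.48 ± 0.30 (adjusted p = 0.223) and 0.35 ± 0.33 (adjusted p = 0.456).

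**Figure D2:**
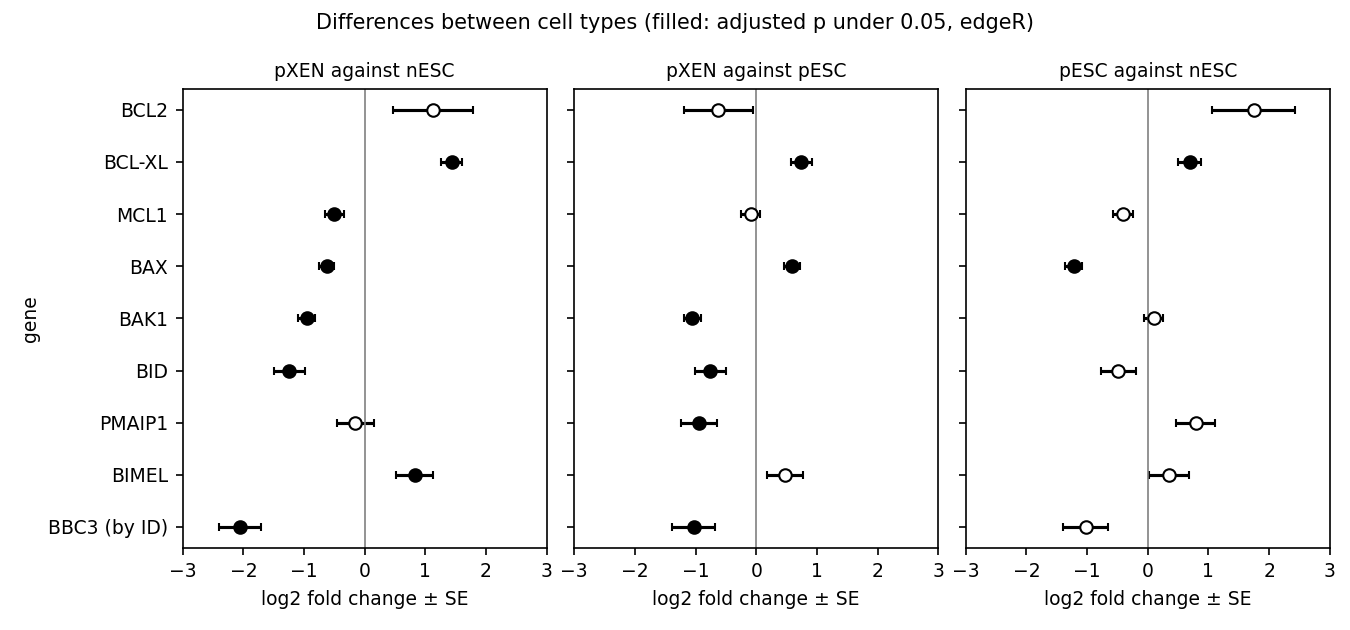
Log2 fold change of counts with its SE for each row in the 3 comparisons between cell types, with filled points where the adjusted p was under 0.05. BAX, BAK1, BID and the BBC3 row lie left of 0 and BCL-XL right of 0 in pXEN cells against nESCs, and BAX lies right of 0 against pESCs.

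The tables also hold rows with no gene name but with a protein domain of the family. An unnamed row at chr5:3175297-3192982 on the minus strand carries the domain of BIK, a BH3-only protein of the endoplasmic reticulum. It was at 9.04, 13.5 and 13.6 FPKM in pXEN lines 1 to 3, 3.40 and 2.32 in the nESC lines and 1.46 and 2.498 in the pESC lines. The pXEN lines lay above every ESC line, 4.19-fold over nESCs (2.07 ± 0.37, adjusted p = 0.00215) and 6.08-fold over pESCs (2.60 ± 0.39, adjusted p = 0.000966), and all 16 alternatives kept both calls. With this row, a BH3-only domain was higher in pXEN cells while BID and the BBC3 row were lower than in nESCs.

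Another unnamed row, at chr1:175824150-175993066 on the plus strand and 4621 bases long, carries the Bcl-2 family domain and the BH4 domain, which marks anti-death members. It lies on the chromosome of the BCL2 row, on the other strand as listed. Its counts were 56, 71 and 61 in the pXEN lines, 29 and 48 in the nESC lines and 131 and 161 in the pESC lines. The cell types followed each other in the order seen for BCL2, and pESCs were 3.40-fold above nESCs (1.76 ± 0.33, adjusted p = 0.00507), in all 16 alternatives. The adjusted p of the comparisons of pXEN cells were 0.0483 against nESCs, lost in 14 of 16 alternatives with 0.261 without nESC line 1 as the highest, and 0.0260 against pESCs, lost in 6 with 0.148 without pESC line 2 as the highest. Whether this row and the BCL2 row belong to a single transcript was not tested.

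For BMF, which senses loss of attachment to the matrix, an unnamed row at chr1:146157359-146170617 on the minus strand alone carries the domain of that name. It held 9, 20 and 13 counts in the pXEN lines, 2 and 6 in the nESC lines and 4 and 11 in the pESC lines, and no comparison passed edgeR's test (adjusted p = 0.0562 against nESCs, and 0.0207 with limma on log2(FPKM + 1)). A further unnamed row described as BIM (ENSSSCG00000008108, chr3) held 33, 41 and 46 counts in the pXEN lines, 5 and 21 in the nESC lines and 30 and 8 in the pESC lines. The lines within each ESC type stood far apart, all of them below the pXEN lines, and the row was not called (adjusted p = 0.0766 against nESCs, 0.0364 there without nESC line 2 and 0.0477 and 0.0367 with limma, and 0.156 against pESCs).

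Read together per library, the pro-death sum stayed below the anti-death sum in all 7 libraries when the 6 members were used. The sum of BAX, BAK1, BID and PMAIP1 was 113 ± 12.7 FPKM (SD, n = 3) in pXEN cells, 186 ± 3.79 (SD, n = 2) in nESCs and 105 ± 6.46 (SD, n = 2) in pESCs. The sum of MCL1 and BCL2 was 139 ± 26.1, 195 ± 2.98 and 150 ± 3.53 FPKM in the same order. Pro-death over anti-death FPKM was 0.820, 0.755 and 0.882 in pXEN lines 1 to 3, 0.951 and 0.958 in the nESC lines and 0.660 and 0.744 in the pESC lines. The nESC lines thus held the highest ratios and the pESC lines the lowest, with no overlap between the types. As log2 ratios the means were −0.29 ± 0.11 (SD, n = 3), −0.07 ± 0.01 (SD, n = 2) and −0.51 ± 0.12 (SD, n = 2). These scores over chosen genes were given no test.

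With the 3 rows for BCL2L1, BCL2L11 and BBC3 added, a choice made after the values were seen, the pXEN lines lost their middle place. The log2 ratio became −0.62, −0.62 and −0.54 in pXEN lines 1 to 3, 0.01 and 0.04 in the nESC lines and −0.62 and −0.49 in the pESC lines. Only the nESC lines were then near equal sums, and pXEN cells and pESCs overlapped. The unnamed rows with the domains of BIK, BMF and BH4, the further BIM row and BOK, a pore former described below, entered neither score. All of these but the BH4 row were highest in the pXEN lines. The place of the pXEN lines therefore depends on which rows are summed, and how these rows would move it was not tested. What filled the anti-death sum also differed. BCL-XL made up 21.8 to 27.8% of the FPKM of MCL1, BCL-XL and BCL2 in the pXEN lines, 14.4 to 16.4% in the pESC lines and 6.98 to 8.82% in the nESC lines, and MCL1 made up 71.1 to 77.4%, 82.5 to 83.8% and 91.1 to 92.4%. On the pro-death side of the 6 members, BAX supplied 77.5 to 78.6% in the pXEN lines and 71.3 to 74.3% in the nESC lines, but 54.0 to 57.5% in the pESC lines, where BAK1 supplied 16.5 and 19.8% against at most 10.5% in any other line and PMAIP1 5.76 and 7.08% against at most 3.93%. Because sums add FPKM of different genes, they rest on listed lengths of 579 bases for BAX and 646 for MCL1, which count for most. Without BAX in the sum, pESCs moved from the lowest to the highest place, at −1.69 ± 0.20 against −1.95 ± 0.11 in nESCs and −2.47 ± 0.09 in pXEN cells.

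**Figure D3:**
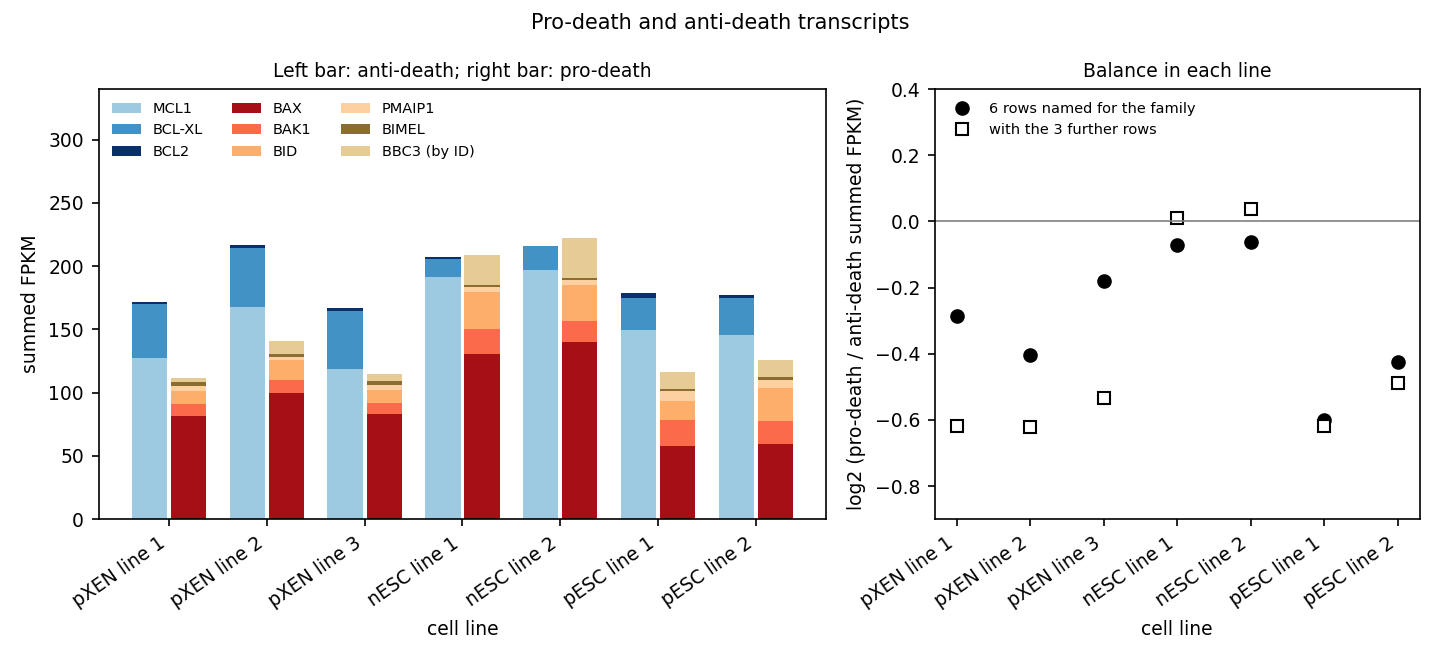
Left, summed FPKM of the anti-death rows (left bar) and pro-death rows (right bar) in each cell line, stacked by gene, including the 3 rows under another name or identifier. Right, log2 of pro-death over anti-death summed FPKM in each line, from the 6 rows named for the family (filled circles, −0.60 to −0.06) and with the 3 further rows (open squares, −0.62 to 0.04), where the nESC lines lie highest in both.

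Around the family, 68 genes in 7 lists of the cell death pathway were read from the same fit. Of these, 54 were listed, 3 of them by identifier only, and 47 were tested. Among the 47, 12 were higher and 13 lower in pXEN cells than in nESCs, 11 higher and 16 lower than in pESCs, and 11 higher and 8 lower in pESCs than in nESCs. These counts stand beside 28.3% higher and 26.2% lower, 23.9% and 24.4%, and 19.0% and 13.3% of all genes tested. Their median log2 fold changes were −0.11, −0.10 and −0.02, beside 0.00, −0.01 and 0.01 over all genes tested.

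In the wider BCL2 family, 4 of 9 tested genes were higher and 1 lower in pXEN cells than in nESCs, 1 was higher and 3 lower than in pESCs, and 3 were higher in pESCs than in nESCs, with medians of 0.01, −0.29 and 0.43, beside 28.3%, 26.2%, 23.9%, 24.4% and 19.0% of all genes called in those directions. Of the genes higher than in nESCs, BOK and BCL2L14 were nearly or wholly absent there and passed the filter on low counts through the types where they were high, so these counts support nothing. BNIP3L and BNIP3, mitochondrial proteins known for removing mitochondria by autophagy under low oxygen, were among the higher genes. BNIP3L was at 39.7 ± 6.46 FPKM in pXEN cells (SD, n = 3), 16.3 ± 2.34 in nESCs and 50.4 ± 0.963 in pESCs (SD, n = 2 each), with 1.28 ± 0.16 against nESCs (adjusted p = 0.000304) and 1.61 ± 0.17 between pESCs and nESCs (adjusted p = 0.000383). BNIP3 was 1.97-fold higher in pXEN cells than in nESCs (adjusted p = 0.00780, and 0.0638 without nESC line 2). BAD, the BH3-only protein switched off by growth factor signalling, was at 13.6 ± 3.09 FPKM in pXEN cells and 28.9 ± 1.37 in pESCs (−1.07 ± 0.20, adjusted p = 0.00309 in edgeR), which every alternative kept. BCL2L12 was 1.49-fold lower in pXEN cells than in pESCs (adjusted p = 0.0163), a call lost without pXEN line 1 (0.0557), pESC line 1 (0.112) or pESC line 2 (0.0598).

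A pair of genes of that list lay below the expression level that the naming rule asks for and were singled out after their values were seen. BOK, a pore former related to BAX and BAK1, had 106, 147 and 113 counts in the pXEN lines, 0 in both nESC lines and 56 and 67 in the pESC lines. With 3 counts per library as the floor, its FPKM in pXEN cells was thereby at least 43.9-fold higher than in nESCs, and that in pESCs at least 18.3-fold higher. It was 2.41-fold higher in pXEN cells than in pESCs (1.27 ± 0.28, adjusted p = 0.00819, and 0.0658 without pESC line 1). BOK passed the filter on low counts through the other types, so no test against nESCs is given, and the list's medians are the same with BOK at its bound. BCL2L14 held 18, 41 and 40 counts in the pXEN lines, 1 and 9 in the nESC lines and 193 and 192 in the pESC lines. It was lower in pXEN cells than in pESCs, by −2.28 ± 0.50 on the log2 scale (adjusted p = 0.00629), and like BOK it is given no test against nESCs.

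Downstream of the pore, the genes of mitochondrial release were lower in pXEN cells than in nESCs in 4 of 8 cases, beside 26.2% of all genes, with a median of −0.61. Against pESCs 1 was higher and 2 lower, beside 23.9% and 24.4% (median −0.01), and in pESCs 1 was lower than in nESCs, beside 13.3% (median −0.37). CYCS, cytochrome c itself, was at 93.5 ± 17.1 FPKM in pXEN cells, 201 ± 10.6 in nESCs and 155 ± 9.89 in pESCs. It was 2.15-fold lower in pXEN cells than in nESCs (−1.11 ± 0.15, adjusted p = 0.000498) and 1.65-fold lower than in pESCs (adjusted p = 0.00529, and 0.0510 without pESC line 2). VDAC2, the channel of the outer membrane that holds BAK1, was, like BAK1, lowest in pXEN cells: 148 ± 9.71 FPKM in pXEN cells, 271 ± 20.3 in nESCs and 267 ± 17.2 in pESCs. VDAC2 was lower in pXEN cells in both comparisons (−0.88 ± 0.11, adjusted p = 0.000258, and −0.84 ± 0.11, adjusted p = 0.000423), in all 16 alternatives. AIFM1, a mitochondrial flavoprotein that can enter the nucleus in cell death, was 2.04-fold lower in pXEN cells and 2.14-fold lower in pESCs than in nESCs (adjusted p = 0.000476 and 0.00151). APAF1, which forms the apoptosome with cytochrome c, was 1.46-fold higher in pXEN cells than in pESCs at an adjusted p of 0.0454, which 14 of 16 alternatives lost, rising to 0.297 without pESC line 1 and was past 0.05 without pXEN line 1 (0.0732), 2 (0.0556) or 3 (0.0845) and without nESC line 1 (0.0722) or 2 (0.0709).

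Of 7 caspases, 6 were listed and 4 passed the filter on low counts. Of these 4, 1 was higher in pXEN cells than in nESCs and 2 were higher than in pESCs, beside 28.3% and 23.9% of all genes, with medians of 0.27 and 0.43 and of −0.29 between the ESC types. The executioner CASP6 was at 59.2 ± 10.8 FPKM in pXEN cells, 33.3 ± 2.07 in nESCs and 24.5 ± 0.185 in pESCs, higher by 0.83 ± 0.17 (adjusted p = 0.00375) and 1.28 ± 0.17 (adjusted p = 0.000565), and all alternatives kept both. CASP9, the initiator that APAF1 activates, was 1.53-fold higher in pXEN cells than in pESCs (adjusted p = 0.0274), which 9 of 16 alternatives lost, among them those without pXEN line 1 (0.0831) or 3 (0.0752) and pESC line 1 (0.124) or 2 (0.134). Of 3 inhibitors of apoptosis, 1 was higher in pXEN cells than in nESCs, 1 higher and 1 lower than in pESCs, and 2 higher in pESCs than in nESCs, with medians of 0.38, 0.50 and 0.45, where 28.3%, 23.9%, 24.4% and 19.0% of all genes were called in those directions. XIAP, the X-linked gene whose product blocks caspases directly, was at 32.6, 28.8 and 26.1 FPKM in pXEN lines 1 to 3, 5.66 and 7.25 in the nESC lines and 16.5 and 16.0 in the pESC lines. XIAP was 4.497-fold higher in pXEN cells than in nESCs (2.17 ± 0.16, adjusted p = 2.22e-05), 1.80-fold higher than in pESCs (adjusted p = 0.00252) and 2.49-fold higher in pESCs than in nESCs (adjusted p = 0.000999), in all 16 alternatives. The median log2 fold change of tested genes on chromosome X was 0.02, −0.05 and 0.08 in these comparisons. BIRC6, a very large inhibitor of apoptosis, was 1.47-fold lower in pXEN cells than in pESCs (adjusted p = 0.00258), and its 1.36-fold higher level in pESCs than in nESCs (adjusted p = 0.0174) was lost without any of the 4 ESC lines (0.0733 to 0.121).

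**Figure D4:**
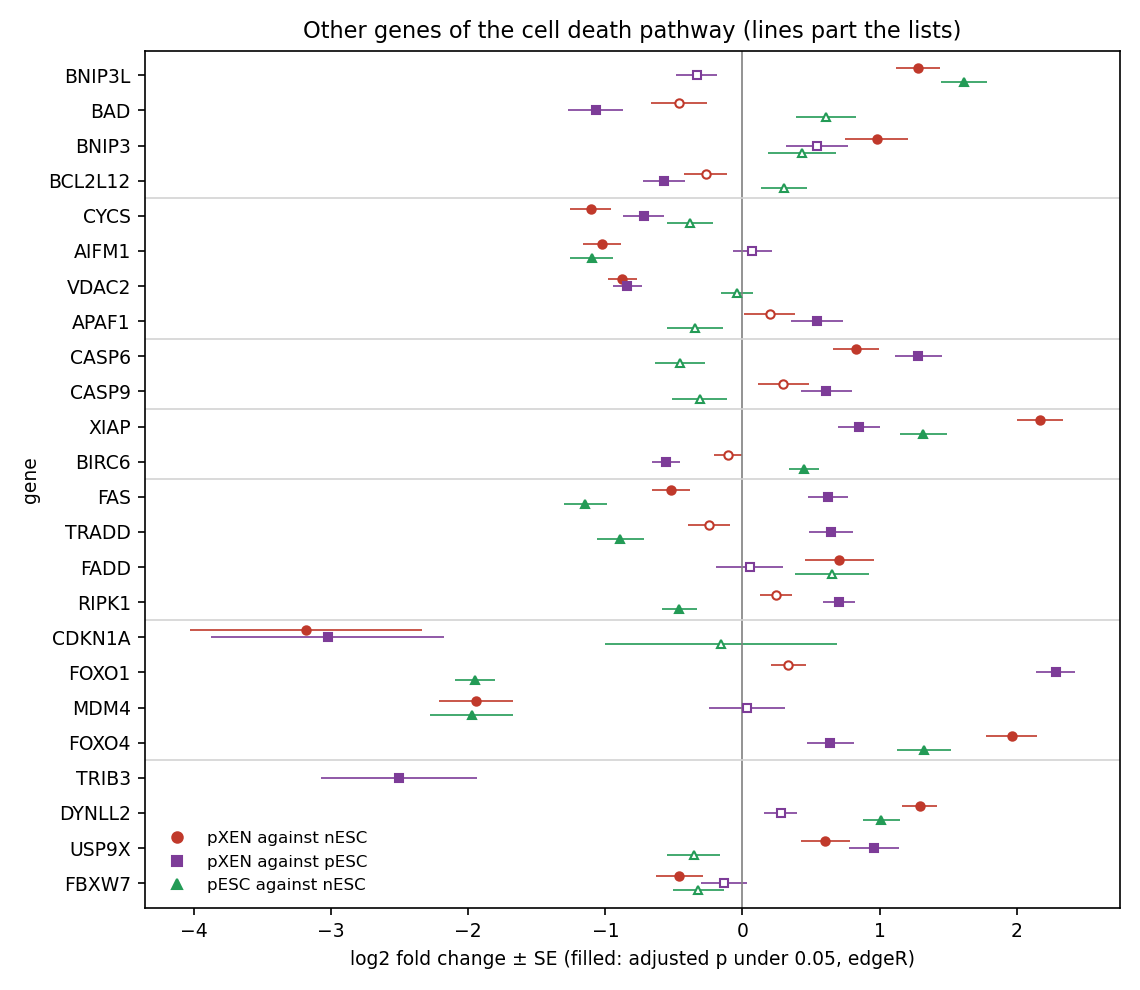
Log2 fold change with its SE of the other genes of the cell death pathway named by rule, in 3 comparisons, grouped by list from the wider BCL2 family at the top to MCL1 and BIM turnover at the bottom, with filled points where the adjusted p was under 0.05. TRIB3 has no point against nESCs, whose libraries held 0 and 2 counts of it, and XIAP lies right of 0 in all 3 comparisons.

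Of 6 genes of the death receptor pathway, 1 was higher and 1 lower in pXEN cells than in nESCs, 3 higher and 2 lower than in pESCs, and 1 higher and 3 lower in pESCs than in nESCs, with medians of 0.00, 0.34 and −0.18. Of all genes, 28.3% and 26.2%, 23.9% and 24.4%, and 19.0% and 13.3% were higher and lower in these comparisons. FAS, the receptor, was at 10.196 ± 0.787 FPKM in pXEN cells, 14.6 ± 1.13 in nESCs and 6.65 ± 0.641 in pESCs, the order of BAX. It was 1.43-fold lower in pXEN cells than in nESCs (adjusted p = 0.0141, and 0.0965 without nESC line 1), 1.54-fold higher than in pESCs (adjusted p = 0.00863, and 0.0843 without pESC line 1) and 2.21-fold lower in pESCs than in nESCs (adjusted p = 0.00134). The first of these was also lost, at 0.0683, with the line numbers as a replicate block. The adaptor TRADD was 1.56-fold higher in pXEN cells than in pESCs (adjusted p = 0.0109) and 1.86-fold lower in pESCs than in nESCs (adjusted p = 0.00598). Without pESC line 1 both calls were lost, at log2 differences of 0.56 and −0.80. RIPK1 was 1.63-fold higher in pXEN cells than in pESCs (adjusted p = 0.00162), in all alternatives, and 1.38-fold lower in pESCs than in nESCs (adjusted p = 0.0248), which was lost without any of the 4 ESC lines (0.0533 to 0.197). FADD, which recruits caspase 8, was 1.63-fold higher in pXEN cells than in nESCs at an adjusted p of 0.0445, which 11 of 16 alternatives lost, up to 0.193 without nESC line 1.

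Among 10 tested genes of a list of regulators of BH3-only genes, which also holds CDKN1A, the gene of a cell cycle inhibitor, 2 were higher and 5 lower in pXEN cells than in nESCs, 2 higher and 6 lower than in pESCs, and 3 higher and 3 lower in pESCs than in nESCs, with medians of −0.47, −0.67 and −0.08. The shares over all genes were 28.3% and 26.2%, 23.9% and 24.4%, and 19.0% and 13.3%. FOXO1 and FOXO4 are transcription factors known to raise BIM and PUMA. FOXO1 was at 23.0 ± 2.94 FPKM in pXEN cells, 18.1 ± 0.361 in nESCs and 4.73 ± 0.426 in pESCs, which put it 4.87-fold higher in pXEN cells than in pESCs (2.29 ± 0.14, adjusted p = 1.40e-05). FOXO4 was 3.90-fold higher in pXEN cells than in nESCs (1.96 ± 0.18, adjusted p = 6.84e-05) and 2.503-fold higher in pESCs (adjusted p = 0.00177). Its 1.56-fold higher level in pXEN cells than in pESCs (adjusted p = 0.0157) was lost without pESC line 1 (0.0802) or 2 (0.111) and, at 0.0659, with the replicate block. MDM4, a relative of the ubiquitin ligase MDM2, was at 14.4 ± 4.64 FPKM in pXEN cells, 55.0 ± 6.59 in nESCs and 14.1 ± 2.89 in pESCs (−1.94 ± 0.27, adjusted p = 0.000519, against nESCs). CDKN1A, which codes for p21 and was matched by identifier, split its own groups, at 2.46, 1.38 and 4.51 FPKM in the pXEN lines, 45.2 and 5.24 in the nESC lines and 31.4 and 14.2 in the pESC lines. Its call against nESCs (−3.18 ± 0.85, adjusted p = 0.0134) rested on nESC line 1, without which the difference was −0.93 and the adjusted p 0.307, and was lost at 0.0531 with limma on log2(FPKM + 1), and that against pESCs (−3.03 ± 0.85, adjusted p = 0.0193) was lost without pXEN line 1 (0.0592) or pESC line 1 (0.121).

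In a list drawn up around the turnover of MCL1 and BIM, which also holds genes with other roles, 7 genes were tested. In pXEN cells 3 were higher and 2 lower than in nESCs, and 1 was higher and 2 lower than in pESCs. In pESCs 2 were higher and 1 lower than in nESCs. The medians were 0.17, −0.14 and 0.20. The shares of all genes were the same 28.3% and 26.2%, 23.9% and 24.4%, and 19.0% and 13.3%. TRIB3, with 0 and 2 counts in the nESC lines, is among the genes counted as higher than there and passed the filter through the other types. USP9X, which removes ubiquitin from MCL1, was at 15.02 ± 2.56 FPKM in pXEN cells, 9.85 ± 1.88 in nESCs and 7.78 ± 0.460 in pESCs. It was 1.94-fold higher in pXEN cells than in pESCs (0.96 ± 0.18, adjusted p = 0.00314), in all alternatives, and 1.52-fold higher than in nESCs (adjusted p = 0.0206, and 0.171 without nESC line 1). FBXW7, a ubiquitin ligase subunit that marks MCL1 for breakdown, was 1.38-fold lower in pXEN cells than in nESCs at an adjusted p of 0.0484, which 12 of 16 alternatives lost, up to 0.320 without nESC line 2. DYNLL2, the dynein light chain that tethers BMF, was at 73.6 ± 2.99, 30.0 ± 4.73 and 61.1 ± 2.47 FPKM in pXEN cells, nESCs and pESCs, 2.45-fold higher in pXEN cells than in nESCs (1.29 ± 0.13, adjusted p = 8.17e-05). TRIB3, a stress-induced pseudokinase, held 75, 16 and 79 counts in the pXEN lines, 0 and 2 in the nESC lines and 365 and 434 in the pESC lines. It was 5.67-fold lower in pXEN cells than in pESCs (−2.502 ± 0.57, adjusted p = 0.00766, and 0.0525 without pESC line 2).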

How the data were processed

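RNA of 7 porcine cell lines was measured by directional sequencing of rRNA-depleted libraries. The authors aligned reads with HISAT2 2.0.5 to Sscrofa10.2 and counted them per gene with featureCounts 1.5.0-p3, per the labels; the strand setting of the counting is not given in the sources used here. The deposited counts are raw. The deposited FPKM are, per the file values, those counts divided by the listed length and by a library total that was 0.913 to 1.08 times the library's sum. A single fit held all 7 libraries in 3 groups taken from the sample titles: edgeR 4.0.16 quasi-likelihood test, TMM scaling, filterByExpr, Benjamini-Hochberg adjustment over 17447 genes. Family scores of FPKM got no test. The scripts were tested on simulated data. DESeq2 1.42.0, limma 3.58.1 on log2(FPKM + 0.1) and log2(FPKM + 1), other scalings and filters, a replicate block and leaving out each line were alternatives.

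The members and gene lists were chosen with earlier results of these data known. All members found were named. From each other list, at most 4 genes were named, those called in at least 1 comparison with a mean log2 CPM of at least 3, by largest change. Gene names came from the tables, and 3 list genes and the BBC3 row were matched by identifier in an Ensembl name table. The rows for BCL-XL, BIMEL and BBC3 and the unnamed rows with a family domain were added after the tables were read, as were BOK and BCL2L14. Some results are not reported here. Libraries of a type are separate lines, so p-values measure the spread between lines.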

Additional observations from a re-analysis of the deposited data

How the results depend on the processing

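Of the calls on family members, those of BAX, BAK1 and BID against nESCs, BAK1 against pESCs and BAX between the ESC types were kept in all 16 alternatives, as were those of BCL-XL and the BBC3 row against nESCs. Line numbers are shared between cell types, and the deviations of same-numbered lines correlated at −0.08 to 0.16. In a type with 2 lines the deviations mirror each other. The correlation between the ESC types, −0.08 for either number, is thus a single value and cannot decide whether their lines are paired. The reported fit did not pair the samples. With the replicate block, 3, 3 and 1 members and 8274, 6993 and 5041 genes were called in pXEN cells against nESCs, pXEN cells against pESCs and pESCs against nESCs. Members called between pESCs and nESCs numbered 2 with upper-quartile scaling, 3 with only these groups fitted and 2 with limma at either pseudocount, where 5931, 7194, 5686 (pseudocount 0.1) and 5796 (pseudocount 1) of all genes were called, against 5621 in the reported fit. With 1 line left out, members called ranged from 3 to 4, from 1 to 5 and from 1 to 3 in the 3 comparisons, and genes called from 7287 to 10359, from 5553 (without pESC line 2) to 9566 and from 2965 (without pESC line 1) to 7566, the lower values with fewer samples of a type. In the same runs, 3 differences that were not called crossed 0, PMAIP1 against nESCs (−0.30 to 0.0909), MCL1 against pESCs (−0.26 to 0.0123) and BAK1 between the ESC types (−0.0214 to 0.22). BCL2 could not be fitted with at least 10 counts in every library. Upper-quartile scaling moved the median of all genes by −0.16 in pXEN cells against nESCs, and library totals moved it by −0.18 there and by −0.17 against pESCs.

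The log2 balance differed by −0.22 between pXEN cells and nESCs, 0.22 between pXEN cells and pESCs and −0.45 between pESCs and nESCs, with ranges of −0.28 to −0.17, 0.14 to 0.31 and −0.53 to −0.36 when 1 line was left out. In the same order these became −1.16, −0.21 and −0.95 as a difference of mean log2(FPKM + 0.1), −0.79, −0.22 and −0.57 with a pseudocount of 1, −2.23, 0.70 and −2.93 without MCL1, −0.53, −0.78 and 0.26 without BAX, and −0.62, −0.0378 and −0.58 with the 3 further rows. With BAX and BAK1 as the only pro-death genes the last 2 were 0.44 and −0.60. Without MCL1 the anti-death side is BCL2 alone, which had 2 counts in nESC line 2, under the floor of 3, so that setting is no support for a direction. Outside that setting pXEN cells stayed below nESCs, while the sign against pESCs turned in 4 settings, and the cause was not tested. Among these 4 are both differences of mean log2 values, which weight BCL2 as much as MCL1 and share its limit in nESC line 2. With a pseudocount of 0.1 nESC lines 1 and 2 stood at 0.54 and 1.38, against −0.07 and −0.06 in the reported score.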
